A study of Mus musculus with 2 samples.

Results

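The 10 genes described here make, load and regulate the major histocompatibility complex (MHC) class II molecules: H2-Aa, H2-Ab1, H2-Eb1, H2-DMa, H2-DMb1, H2-DMb2, H2-Oa, H2-Ob, Cd74 and Ciita. They were chosen by name, as every array spot whose gene name is one of them, out of 27595 named genes on the array. The 10 genes had 16 probes and 25 spots among 41170 probes in all. Expression had been measured in LSK cells, the lineage-negative, Sca-1-positive and c-Kit-positive cells of bone marrow that hold haematopoietic stem cells and multipotent progenitors. One array held RNA of PAD4-deficient LSK cells (PAD4-/-) and the other RNA of wild-type LSK cells, both from C57BL/6 mice and sorted by flow cytometry. PAD4, encoded by Padi4, is an enzyme that turns arginine into citrulline within proteins such as histones. The sources used here do not give the age, sex and number of mice, whether marrow was pooled, or which part of Padi4 was deleted. Each genotype had 1 array, so its differences have no replicate check and no test across groups was possible.

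MHC class II molecules are pairs of an alpha and a beta chain that show peptides from endosomes to CD4 T cells. The invariant chain, encoded by Cd74, guides new pairs to endosomes and fills their groove until the DM pair exchanges its remnant for a peptide. The DO pair binds DM and restrains that exchange. Ciita encodes the main transactivator of class II promoters, and dendritic cells, B cells and macrophages are the cells known for high class II levels. C57BL/6 mice make the A pair (H2-Aa with H2-Ab1) but no surface E pair, because their H2-Ea gene, for the E alpha chain, is defective.

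Class II promoters share an X box, bound by RFX proteins, and a Y box, bound by NF-Y, ahead of the start site, and the transactivator docks on the complex formed there. Promoter sequence was taken from RefSeq (GRCm38.p6) for 7 of the 10 genes. H2-Ab1 and Ciita had no entry, and Cd74 was left out of the search, so these genes are named only. The 70-base stretches below are shown because they hold the part that the class II genes share. Capitals mark ATTGG, the core of the Y box (CCAAT on the other strand). They also mark GCAAC, a core of the X box, where it stands 15 to 30 bases ahead of the Y box core.
H2-Aa (chr17:34287852-34287921, minus strand): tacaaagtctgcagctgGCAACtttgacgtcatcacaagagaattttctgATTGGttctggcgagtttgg
H2-Eb1 (chr17:34305758-34305827, plus strand): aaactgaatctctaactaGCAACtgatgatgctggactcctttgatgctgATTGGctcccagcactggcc
H2-Oa (chr17:34092286-34092355, plus strand): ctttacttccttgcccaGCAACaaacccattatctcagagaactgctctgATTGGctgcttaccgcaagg
H2-Ob (chr17:34238798-34238867, plus strand): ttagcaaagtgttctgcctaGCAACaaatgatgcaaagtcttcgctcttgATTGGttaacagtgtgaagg
H2-DMb1 (chr17:34153080-34153149, plus strand): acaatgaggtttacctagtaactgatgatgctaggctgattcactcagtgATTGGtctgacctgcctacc
H2-DMb2 (chr17:34145109-34145178, plus strand): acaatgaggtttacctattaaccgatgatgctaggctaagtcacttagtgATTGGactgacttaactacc
H2-Eb2 (chr17:34325525-34325594, plus strand): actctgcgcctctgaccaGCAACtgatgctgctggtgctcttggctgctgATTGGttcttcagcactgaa

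The pair GCAAC and ATTGG was found in 4 of the 7 genes, H2-Aa, H2-Eb1, H2-Oa and H2-Ob, with a gap of 25 to 28 bases. ATTGG began 48 bases before the start site in H2-Aa, 59 in H2-Eb1, 43 in H2-Oa and 57 in H2-Ob. The 3 DM genes did not hold the pair in these exact letters. H2-DMb1 and H2-DMb2 had ATTGG at 61 and 90 bases before the start site, without GCAAC ahead of it. Their stretches above have gtaac and ttaac at about the place of GCAAC in H2-Aa and H2-Oa. Such variants were not searched for, so an X box with other letters would be missed. H2-DMa has 2 entries in the table, of which the first held no CCAAT motif. Searched on both strands, the pair stood in 0.834% and CCAAT alone in 37.4% of all 32851 promoters of the same length (300 bases). H2-Eb2, a neighbouring beta chain gene outside the 10, also held the pair. These matches describe letters in a window and not bound sites.

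The sorted cells and the targeted gene were checked first. Kit and Ly6a, the genes of c-Kit and Sca-1, were detected well above background on both, with log2 differences of 0.07 and -0.14. Padi4 had signals of 2670, 1394 and 59.4 on the PAD4-deficient array at its 3 probes, against 12879, 6813 and 254 on the wild-type array. The arrays also differed in sex-linked RNA. Xist, made from the inactive X chromosome, passed the background test at all 4 of its probes for PAD4-deficient cells and at none for wild-type cells. Ddx3y, a Y-linked gene, had 1298 at its brightest probe on the PAD4-deficient array, against 3455 on the wild-type array. Eif2s3y, also Y-linked, had 1076 on the PAD4-deficient array, against 2611 on the wild-type array. The PAD4-deficient array thus held both Xist and Y-linked RNA, so it does not read as female cells alone. The wild-type array held Y-linked RNA without Xist. Sex make-up and genotype thus cannot be told apart here. The PAD4-deficient array had 64.1% and the wild-type array 63.9% of all probes well above background.

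All 16 probes of the 10 genes were well above background on both arrays and none was saturated. Signals below are Feature Extraction's processed signals, linear and background-subtracted. Differences are on the log2 scale, PAD4-deficient minus wild-type, after each array was scaled to its 75th percentile (787 on the PAD4-deficient and 814 on the wild-type array). Each difference is given with the scanner's spot error, which does not cover variation between mice. Probes differ in how brightly they report, so signals are compared between arrays and not between genes. The value of a gene is that of its brightest probe.

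The genes are described in 2 sets by role, a division made with their values in view. The classical chains, Cd74 and Ciita were all higher on the PAD4-deficient array, by 0.40 to 1.39 on the log2 scale (median 0.84). The DM and DO chains lay between -0.21 and 0.06 (median -0.10). With the scanner errors the sets overlapped: H2-Aa spanned 0.20 to 0.61 and H2-DMb1 -0.14 to 0.27. Of the 10 genes, 4 were at least 1.5-fold higher (H2-Eb1, Cd74, Ciita and H2-Ab1) and none was 1.5-fold lower. Among all 17022 genes measured on both arrays, 2.88% passed 1.5-fold in the higher and 1.87% in the lower direction. Dim genes make up most of these: among the 9138 genes at least as bright as the dimmest of the 10, the shares were 0.514% higher and 0.646% lower. By probe, 5 of the 16 were at least 1.5-fold higher, against 2.49% of all measured probes. Over the 10 genes the median difference was 0.23, against 0.02 over all measured genes. The direction of this contrast was in part known when the genes were picked, so the counts describe the arrays and carry no test.

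**Figure D1:**
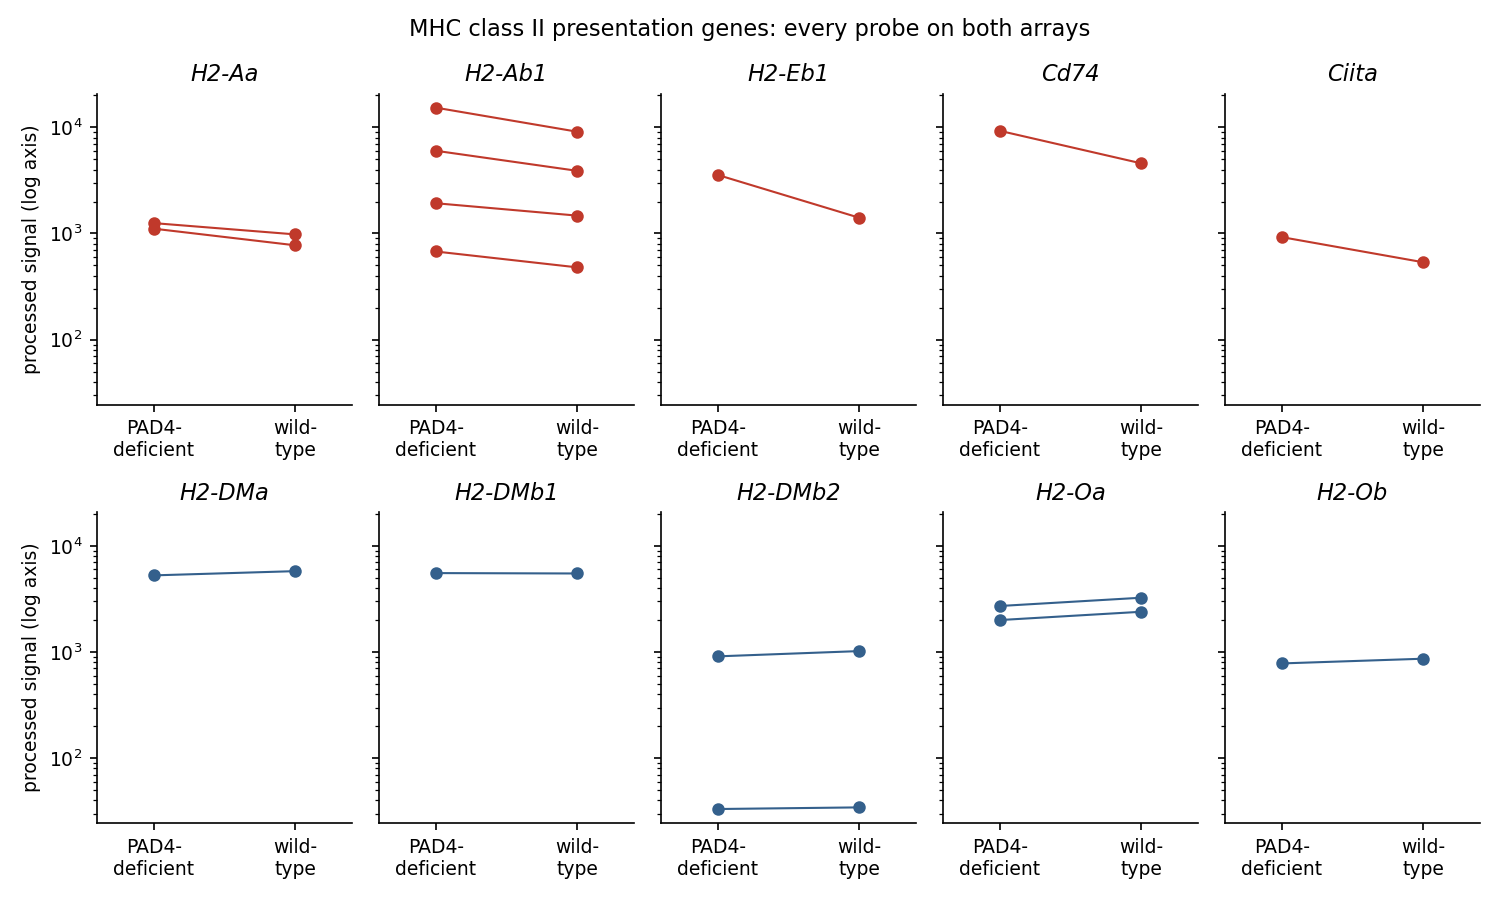
Processed signal (log axis) of every probe of the 10 genes on the PAD4-deficient array and on the wild-type array, with a line joining the 2 values of a probe. All 9 probes of the upper row slope towards the PAD4-deficient array, while the 7 probes of the lower row are nearly level.

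H2-Eb1, the beta chain of the E pair, had the largest difference of the 10. Its single probe (mm8 chr17:33922800-33923261) had a signal of 3560 on the PAD4-deficient array and 1408 on the wild-type array. The difference was 1.39 with a scanner error of 0.20, or 2.62-fold. The file names this probe H2-Eb1 and places it between the H2-Aa and H2-Eb2 probes, but describes its source as an I-A beta mRNA of the NOD strain, so the beta chain it reports is less certain than for the other probes. The whole RefSeq promoter window of H2-Eb1 is shown because this gene moved most (chr17:34305617-34305916, plus strand, GRCm38.p6), with GCAAC and ATTGG in capitals.
H2-Eb1 promoter: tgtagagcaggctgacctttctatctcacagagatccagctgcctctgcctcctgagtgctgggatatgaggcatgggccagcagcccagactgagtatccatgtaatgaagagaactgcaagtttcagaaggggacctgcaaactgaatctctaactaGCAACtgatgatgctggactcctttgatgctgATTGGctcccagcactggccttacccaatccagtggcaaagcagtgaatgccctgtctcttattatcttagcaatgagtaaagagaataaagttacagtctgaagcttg

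H2-Ab1, the beta chain of the A pair, was higher on the PAD4-deficient array by each of its 4 probes. The brightest (mm8 chr17:33877309-33877368) had 15322 on the PAD4-deficient array and 9093 on the wild-type array, a difference of 0.80 (scanner error 0.20). The next probe (mm8 chr17:33875638-33875697) is printed in 10 spots, of which 9 on each array carried no outlier flag. Those spots ran from 5897 to 6112 with a median of 6029 on the PAD4-deficient array, and from 3745 to 4045 with a median of 3890 on the wild-type array. No spot of either array reached the range of the other, and the difference was 0.68. These spots were hybridised to the same RNA, so they measure the array and not the mice. The remaining probes had smaller differences, 0.44 (mm8 chr17:33872973-33873032) and 0.55 (no position in the file). Only the first and the second probe passed 1.5-fold.

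H2-Aa, the alpha chain that pairs with H2-Ab1, was also higher, but by less than 1.5-fold. Its brighter probe (mm8 chr17:33892680-33892739) had 1253 on the PAD4-deficient array and 981 on the wild-type array, a difference of 0.40 (scanner error 0.20). Its other probe (mm8 chr17:33892022-33892081) had 1110 on the PAD4-deficient array and 774 on the wild-type array, a difference of 0.57. The difference of H2-Ab1 exceeded that of H2-Aa by 0.40, with a scanner error of 0.29 for the pair of values, so the chains of the A pair were not clearly apart in size. H2-Eb1 exceeded H2-Ab1 by 0.59 with the same error.

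Cd74, which encodes the invariant chain, had a signal of 9269 on the PAD4-deficient array and 4580 on the wild-type array at its single probe (mm8 chr18:60937790-60937847). The difference was 1.07 (scanner error 0.20), or 2.10-fold. Cd74 and H2-Eb1 were the 2 genes of the 10 past 2-fold, which 1.01% of all measured genes passed in this direction. Ciita, the transactivator, had 924 on the PAD4-deficient array and 536 on the wild-type array (mm8 chr16:10439788-10439847). Its difference was 0.84 (scanner error 0.20), close to that of H2-Ab1. Cd74 and Ciita lie outside the class II region, on other chromosomes than the H2 genes.

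The DM genes, which encode the peptide exchange pair, had nearly the same signals on both arrays. H2-DMa, the alpha chain (mm8 chr17:33747809-33748372), had 5267 on the PAD4-deficient array and 5774 on the wild-type array, a difference of -0.08 (scanner error 0.20). H2-DMb1, a beta chain (mm8 chr17:33767055-33767114), had 5535 on the PAD4-deficient array and 5489 on the wild-type array, a difference of 0.06 (scanner error 0.20). Both differences lay within the scanner error, and both genes were bright, so background does not limit them.

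H2-DMb2, the second beta chain gene, has a brighter probe whose file entry also lists the H2-DMb1 transcript, so it may report both genes. That probe (mm8 chr17:33759287-33759346) had 910 on the PAD4-deficient array and 1020 on the wild-type array, a difference of -0.11 (scanner error 0.20). The probe listed for H2-DMb2 alone among the 2 (mm8 chr17:33758478-33758538) was dim, with 33.2 on the PAD4-deficient array and 34.4 on the wild-type array. Its difference was 0.00 with a larger scanner error of 0.30. Neither probe showed a difference beyond its error.

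The DO genes, which encode the restraint on DM, were level or slightly lower on the PAD4-deficient array. H2-Oa, the alpha chain (mm8 chr17:33705542-33705601), had 2711 on the PAD4-deficient array and 3245 on the wild-type array, a difference of -0.21 (scanner error 0.20). Its second probe (mm8 chr17:33705473-33705533) also gave -0.21, with 1999 on the PAD4-deficient array and 2393 on the wild-type array. H2-Ob, the beta chain (mm8 chr17:33852080-33852311), had 780 on the PAD4-deficient array and 865 on the wild-type array, a difference of -0.10 (scanner error 0.20). H2-Oa and H2-Ob hold the same pair of promoter motifs as H2-Aa and H2-Eb1, so these letters stand in genes of both roles.

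**Figure D2:**
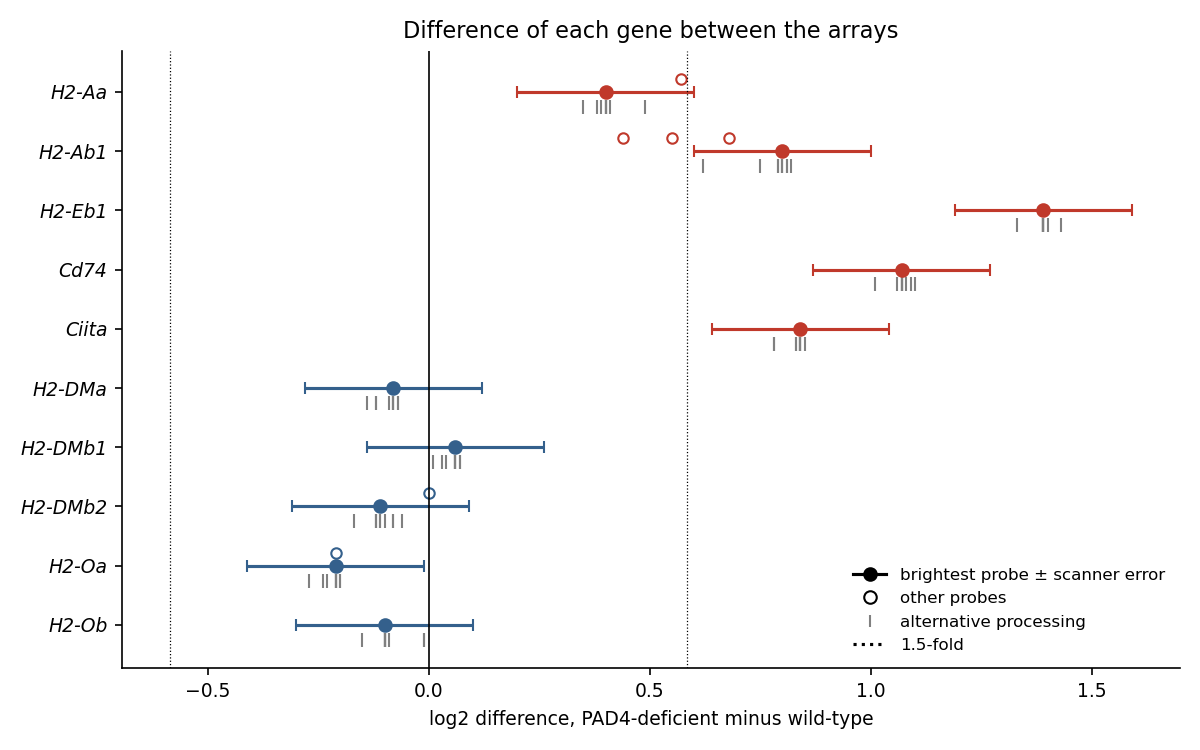
Log2 difference, PAD4-deficient minus wild-type, of each gene at its brightest probe (filled points, bars show the scanner error), at its other probes (open points) and under the alternative processing (grey ticks). H2-Eb1 lies furthest right at 1.39 and H2-Oa furthest left at -0.21; dotted lines mark 1.5-fold.

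The H2 genes lie in one stretch of chromosome 17, and the classical chains that were higher sit next to each other at its end. From H2-Oa, 171.8 kb before the brightest H2-Ab1 probe, to H2-Ob, 25.1 kb before it, no class II gene passed 0.06. H2-Ab1, H2-Aa (15.4 kb after) and H2-Eb1 (45.7 kb after) had 0.80, 0.40 and 1.39. Apart from Notch4, the other measured genes of the region lie before and among the DM and DO genes, and none lies between H2-Ab1 and H2-Eb1. Of 15 listed genes of the region, H2-Ea and H2-Eb2 included, 13 were on the array and 11 were measured, with a median of -0.21, against 0.02 over all genes. None was 1.5-fold higher and 1, Tap1, was 1.5-fold lower, against 2.88% higher and 1.87% lower among all measured genes. Tap1, a subunit of the peptide transporter for class I molecules, had 2476 on the PAD4-deficient array and 3935 on the wild-type array. Its difference was -0.62 (scanner error 0.20). With normexp background correction Tap1 had -0.51 at an offset of 50 and -0.52 at an offset of 0, both short of 1.5-fold. Notch4, a receptor gene 318.9 kb after the H2-Ab1 probe, was the 1 measured neighbour beyond H2-Eb1. It had 238 on the PAD4-deficient array and 170.0 on the wild-type array, a difference of 0.53 (scanner error 0.21), in the range of the classical chains. With normexp background correction, whose offset shrinks the differences of dim genes, Notch4 had 0.40. H2-Ea and H2-Eb2, which follow H2-Eb1, were not well above background on either array, so no difference is given. The H2-Ea signals were 4.7 on the PAD4-deficient and 4.6 on the wild-type array.

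**Figure D3:**
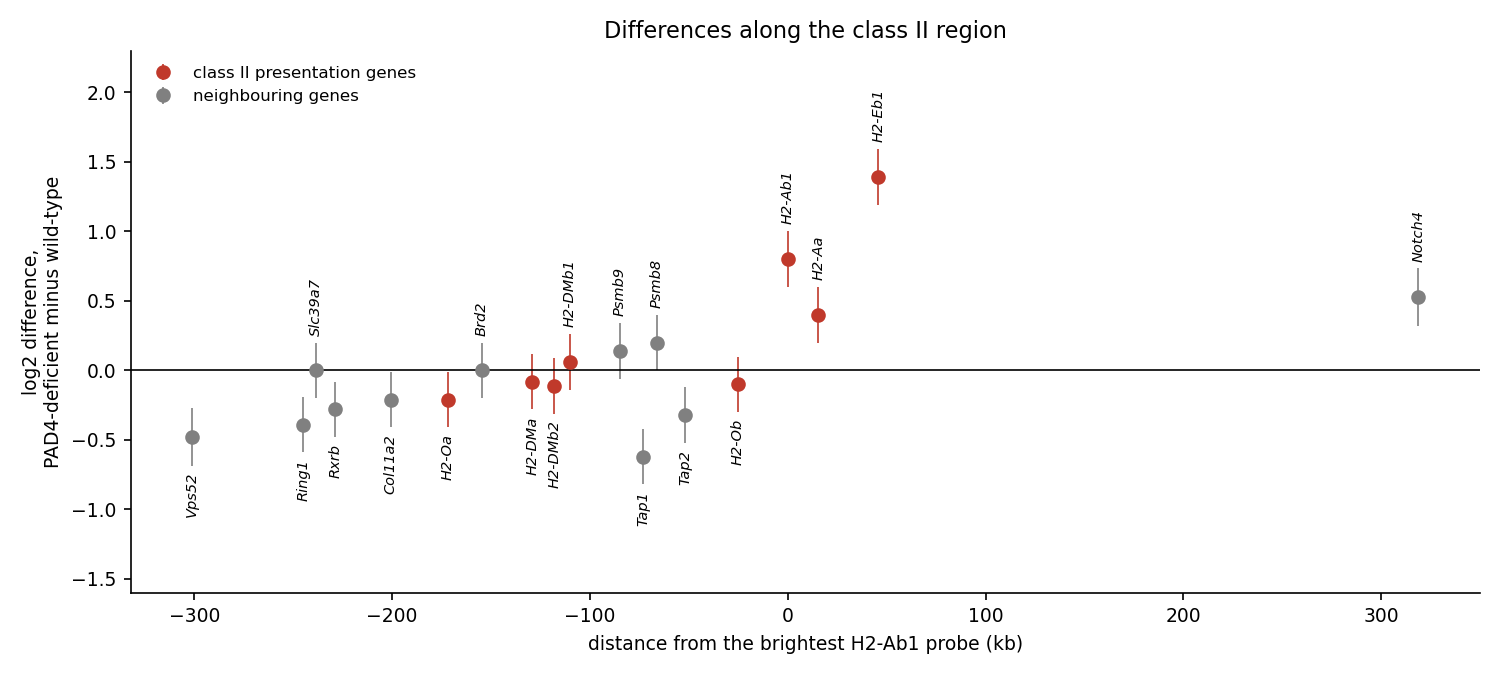
Log2 difference, PAD4-deficient minus wild-type, of the class II genes (red) and of neighbouring genes (grey) against the distance in kb from the brightest H2-Ab1 probe; bars show the scanner error. H2-Ab1, H2-Aa and H2-Eb1 lie next to each other above 0, while the genes before them lie between -0.62 and 0.20 and Notch4, far after them, lies at 0.53.

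The factors that act with or above Ciita were mostly level. Of 18 such genes 17 were measured, with a median of 0.07, against 0.02 over all measured genes. Of the 17, 2 were at least 1.5-fold higher and none lower. Among all measured genes 2.88% were higher and 1.87% lower by that much, shares that dim genes raise. Those 2 were Irf4 and Irf8, interferon regulatory factors of lymphoid and myeloid cells. Irf4 had 158 on the PAD4-deficient array and 63.3 on the wild-type array, a difference of 1.37 (scanner error 0.22), or 0.83 with normexp background correction, whose offset shrinks the differences of dim genes. Irf8 had 7275 on the PAD4-deficient array and 4482 on the wild-type array, a difference of 0.75 (scanner error 0.20), with 0.34 at its second probe. Spi1, a factor of myeloid and B cells, moved the other way, with 257 on the PAD4-deficient array and 398.5 on the wild-type array. Its difference was -0.58 (scanner error 0.21), just short of 1.5-fold lower. The X box and Y box factors differed little: Rfx5 by 0.15, Rfxap by 0.09, Rfxank by -0.05, Nfya by 0.07, Nfyb by 0.09 and Nfyc by -0.14. So did the interferon gamma route that induces Ciita in many cells, with Ifngr1 at -0.07 and Jak1 at 0.05. These members of the list were picked after their values were seen.

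Genes of endosomal processing, which cut the invariant chain and antigens, had a median of 0.10 over 10 measured genes. Ctss, the protease that trims the invariant chain in many antigen-presenting cells, had -0.02, and Ctsl had -0.04. Among all measured genes 2.88% were at least 1.5-fold higher, a share that dim genes raise. Here Marchf1, a dim gene for a ubiquitin ligase that removes class II molecules from the cell surface, was the 1 past 1.5-fold. It had 206 on the PAD4-deficient array and 47.3 on the wild-type array, a difference of 2.17 (scanner error 0.23), or 1.35 with normexp. Ifi30, a thiol reductase of endosomes, had 0.50. The proteases were thus level on both arrays, and Marchf1 was higher.

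Markers of the cells known for class II differed between the arrays as well. Of 13 conventional dendritic cell markers 10 were measured, 5 of them at least 1.5-fold higher and none lower (median 0.41, or 0.27 with normexp), against 2.88% higher among all measured genes, a share that dim genes raise. Of those 5, Xcr1 and Cadm1 were dim, with 133 and 102 on the PAD4-deficient array, against 86.8 and 38.2 on the wild-type array. Plbd1 had 3023 on the PAD4-deficient array and 656 on the wild-type array (difference 2.25), and Batf3, a transcription factor of these cells, had 477 on the PAD4-deficient array and 121 on the wild-type array (difference 2.02). Itgax and Zbtb46, which define such cells more broadly, differed by 0.08 and 0.15. Cd209a was not well above background on either array. Clec9a and Tlr3 passed the background test for PAD4-deficient cells alone, where they had 42.6 and 47.7, against 8.6 and 7.6 on the wild-type array. Set against the lowest signal that passes the background test on the dim array, such genes give a lower bound: at least 2.49-fold and 2.79-fold higher. These bounds leave out the spot error. Genes of this kind, here and below, passed through the array where they are bright, so their direction carries no support. With genes that pass on 1 array let in, the shares past 1.5-fold over all genes were 5.29% higher and 3.42% lower. The summed signal of the list was 45938 on the PAD4-deficient and 47016 on the wild-type array, and Wdfy4 alone gave 36326 of it on the PAD4-deficient and 40889 on the wild-type array.

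Of 17 B cell markers 14 were measured, 13 of them above 0 and 7 at least 1.5-fold higher (median 0.58), against the same 2.88%. Cd22 and Fcrla passed the background test for PAD4-deficient cells alone, with lower bounds of 1.95-fold and 3.48-fold. They are not among the 7, because the filter itself set their direction. The summed signal was 29585 on the PAD4-deficient array and 21995 on the wild-type array. Pax5, the B cell identity factor, had a difference of 1.23 (0.82 with normexp), and Pou2af1, a coactivator, of 1.21. Pax5 was dim, with 164 on the PAD4-deficient array and 72.5 on the wild-type array. Ms4a1, a marker of mature B cells, was dim, with 32.3 on the PAD4-deficient and 27.2 on the wild-type array, and Blk was well above background on neither. Bright markers of the list were mixed. Vpreb1 had 6510 on the PAD4-deficient array and 3345 on the wild-type array (1.01), and Cd79b had 6240 and 5757 in the same order (0.17). Cd72, with 3600 on the PAD4-deficient array and 4842 on the wild-type array, was lower (-0.38). Plasma cell markers had a median of 0.14 over 5 measured genes of 7. Jchain, of secreted antibody, had 2.46 and Mzb1 1.11, while Prdm1 was well above background on neither array. Tnfrsf17 passed for PAD4-deficient cells alone and was at least 3.06-fold higher. The summed signal of this list was 4754 on the PAD4-deficient and 3154 on the wild-type array.

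Monocyte and macrophage markers had a median of 0.10 over 13 measured genes of 16, with 2 at least 1.5-fold higher, again beside 2.88% of all genes. These were Ccr2, a chemokine receptor (1.48, or 0.95 with normexp), and Ly86, a partner of a Toll-like receptor relative (1.30). Csf1r and Cd68 had 0.10 and 0.07, and the remaining 3 passed the background test for PAD4-deficient cells alone. Vsig4, a macrophage receptor, had 260.5 on the PAD4-deficient array and 14.6 on the wild-type array, at least 15.2-fold higher. Siglec1 and Mertk were at least 1.85-fold and 1.5-fold higher. The summed signal was 57371 on the PAD4-deficient and 55942 on the wild-type array, mostly from Lyz2, the lysozyme gene. Without Lyz2 it was 4402 on the PAD4-deficient and 3254 on the wild-type array. Plasmacytoid dendritic cell markers had a median of -0.12 over 4 measured genes of 5, and Siglech was above background on neither array. Ccr9 was 1.5-fold lower (-0.67), as were 1.87% of all measured genes. These markers summed to 24329 on the PAD4-deficient and 23941 on the wild-type array. T cell markers had a median of -0.29 over 5 measured genes of 7, with none of them past 1.5-fold, Cd8a passing the background test for PAD4-deficient cells alone (at least 4.42-fold higher), Cd3g above background on neither array and sums of 3913 on the PAD4-deficient and 5052 on the wild-type array.

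Lists of cells that are not known for class II differed too. All 7 neutrophil markers were above 0 (median 0.58), with Elane, neutrophil elastase, at 1.92 and Ctsg, cathepsin G, at 0.96, and with sums of 148341 on the PAD4-deficient and 98817 on the wild-type array. Of 8 erythroid markers 7 were measured, with a median of 1.63. Of these, 5 were at least 1.5-fold higher, against 2.88% of all measured genes, a share that dim genes raise. Ermap had 2.52 (1.42 with normexp) and Rhd 1.99, but both were dim. Their signals were 179 and 241 on the PAD4-deficient array, against 32.4 and 62.8 on the wild-type array. Hba-a1 and Alas2 were lower, with differences of -0.22 and -0.47. Hba-a1 was the brightest of the list, with 3454 on the PAD4-deficient array and 4176 on the wild-type array. The list summed to 6002 on the PAD4-deficient and 5290 on the wild-type array. The part of any of these cell types in the class II differences was not tested. In sorted bulk RNA, more cells of a type and more RNA per cell cannot be told apart.

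**Figure D4:**
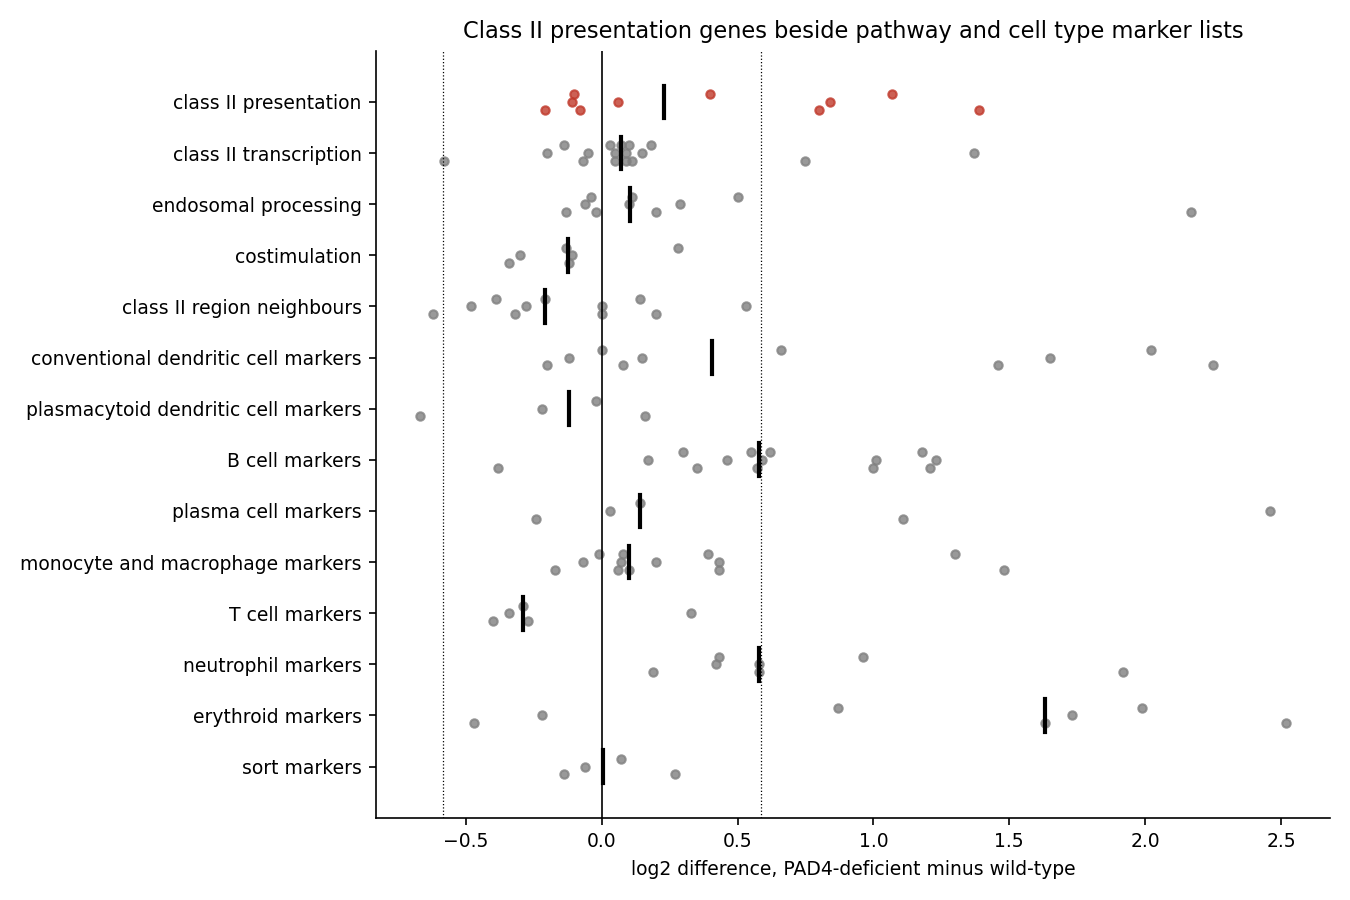
Log2 difference, PAD4-deficient minus wild-type, of each gene measured on both arrays (points) in the class II genes (red) and in pathway and marker lists (grey); black bars are list medians and dotted lines mark 1.5-fold. The class II genes range from -0.21 to 1.39, and the B cell, neutrophil and erythroid medians lie at 0.58, 0.58 and 1.63.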

How the data were processed

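RNA of PAD4-deficient and of wild-type LSK cells was read on 1 array each, of 1-colour Agilent design 014868. Per the file headers, Feature Extraction 9.5.3.1 made the deposited spot intensity (processed signal, background-subtracted and spatially detrended) and its error, and probe positions refer to mm8; per the submitters' processing notes, the tool was Agilent Feature Extraction 9.5. The deposited value table is log2: each column equalled log2 of the median processed signal minus a constant (9.62 for PAD4-deficient, 9.67 for wild-type), with column medians of -3.53 for PAD4-deficient and -3.59 for wild-type, so scale, centring and direction are known. Both arrays lay on 1 slide in 1 scan.

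Control and outlier-flagged spots were left out, spots of a probe averaged on the log2 scale, and each array scaled to its 75th percentile. A gene was measured when a probe was well above background on both arrays, and took the value of its brightest such probe. Probes were named through RefSeq GRCm38.p6 (24375 by accession, 6301 by symbol, 2426 by synonym, 8072 by the file's own name). Errors are scanner errors. The number of arrays limits the precision. The steps were run on simulated data with changes well past 1.5-fold and noise below the scanner error. That run checks the code and not the accuracy of these differences. The members and lists were chosen with earlier results of these data known. The genes named are the 10 members at every probe, H2-Ea, H2-Eb2, Padi4 and up to 2 per list and direction past 1.5-fold; others were picked after their values were seen, and some list members are not reported here. Alternatives covered normexp correction (offset 50 or 0), scaling by quantiles, by the median, by the percentile of detected probes or by loess (span 0.3), the deposited table, a gene's mean probe value, looser filters on dim probes and a 2-fold threshold. Python 3.11.15, numpy 2.4.6, pandas 2.3.3, R 4.3.3 and limma 3.58.1 were used.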

Additional observations from a re-analysis of the deposited data

How the results depend on the processing

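No paired analysis was possible because PAD4-deficient and wild-type cells had 1 array each, and leaving out a replicate was not possible for the same reason. The count of 4 class II genes at least 1.5-fold higher became 2 with the 2-fold threshold, by construction; it was 4 under each of the other 10 alternatives, and no gene was 1.5-fold lower under any. The median over the 10 genes ranged from 0.18 to 0.27. Each of the 10 genes kept the sign of its difference under all 10 alternatives that give one, and moved by less than its scanner error. The ranges were 1.33 to 1.43 for H2-Eb1, 1.01 to 1.10 for Cd74, 0.78 to 0.85 for Ciita, 0.62 to 0.82 for H2-Ab1, 0.35 to 0.49 for H2-Aa, and -0.27 to 0.07 over the DM and DO genes. Signs within the DM and DO set stand for differences of the size of the scanner error. Over all genes, the shares past 1.5-fold higher and lower, 2.88% and 1.87%, were 2.5% and 2.45% with median scaling and 1.2% and 0.78% with normexp at an offset of 50, which shrinks dim genes.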

Other observations

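Costimulatory genes, whose products accompany class II molecules on antigen-presenting cells, were mostly level or lower. Of 8 such genes 6 were measured, with a median of -0.13 and none past 1.5-fold in either direction. Among all measured genes 2.88% were higher and 1.87% lower by that much. Cd86 had 189 on the PAD4-deficient array and 212 on the wild-type array, a difference of -0.12, and Cd83 had a difference of -0.34. Cd40 passed the background test for PAD4-deficient cells alone and was at least 1.76-fold higher, and Cd80 passed for neither genotype. A further probe, which the file describes as an H2-Ob transcript but does not name so, was not well above background, with 4.0 on the PAD4-deficient and 3.9 on the wild-type array.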
